A study of Rattus norvegicus with 7 samples.

Results

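The subject is the set of RXRG peaks that meet nothing else mapped in the series, called lone RXRG peaks here. They were chosen by the positions of their own and 5 other peak lists. They come from the RXRG list of S16 cells, an immortalised rat Schwann cell line grown without treatment. A peak was kept if it shared not a single base with any peak of the H3K27ac, NR2F2, YY1, TEAD1 or SREBP1 lists, and the mitochondrial genome was left out. This gave 22992 of 47935 RXRG peaks, or 48.0% (95% Wilson interval 47.5 to 48.4%, which covers counting error only). They covered 4.26 Mb of the 11.5 Mb under all RXRG peaks. Since the rule used those positions, the number of lone peaks, and everything tied to overlap describe how they were chosen.

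RXRG, NR2F2, YY1 and TEAD1 were mapped in untreated S16 cells by CUT&RUN, in which an antibody brings micrococcal nuclease to the protein and the nuclease releases the DNA beside it. H3K27ac, a histone mark of active promoters and enhancers, was mapped in S16 by ChIP-seq. SREBP1, a regulator of lipid synthesis genes, was mapped by ChIP-seq in the sciatic nerve of wild type rats at postnatal day 15, a whole tissue that holds other cells beside Schwann cells. Each target had 1 library, so that no replicate error exists and no difference between lists was tested. Without a CUT&RUN control in the series, binding and background calls cannot be told apart in a list of positions.

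RXRG is 1 of the retinoid X receptors, nuclear receptors that bind DNA as partners of other nuclear receptors, such as those for retinoic acid, thyroid hormone, oxysterols and fatty acids. In the central nervous system it is known for promoting the maturation of oligodendrocyte precursors during remyelination. NR2F2 is an orphan nuclear receptor whose binding sites resemble those of RXR dimers. YY1 is a zinc finger protein found at many active promoters, and TEAD1 binds DNA for the Hippo pathway coactivators YAP and TAZ.

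Most of the peaks that the rule left out met H3K27ac, often together with another list. H3K27ac overlapped 22558 RXRG peaks, NR2F2 15055, YY1 12051, TEAD1 5912 and nerve SREBP1 2703. For 6283 RXRG peaks H3K27ac was the only list met, and for 1759 NR2F2 was. The numbers kept out by a single other list were far smaller, 133 for YY1, 116 for SREBP1 and 51 for TEAD1. Without the H3K27ac list in the rule, 61.1% of RXRG peaks would have met nothing. Without the NR2F2 list that share would have been 51.6%, and without YY1, TEAD1 or SREBP1 it stayed between 48.1 and 48.2%.

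Few lone peaks owed their place to the exact border. Only 78 of them lay within 10 bp of a peak of another list, 49 of these beside H3K27ac and 21 beside NR2F2. Conversely, 66 RXRG peaks were left out through an overlap of at most 10 bp. Within 50 bp the numbers were 349 lone peaks, with a median width of 164 bp, against 470 left out, with a median of 163 bp. The peaks on either side of the border were thus alike in width.

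Lone RXRG peaks were narrow. Their widths ran from 137 to 1143 bp with a median of 163 bp and quartiles of 147 and 194 bp. The RXRG list as a whole began at 137 bp, and 28.8% of lone peaks were under 150 bp, against 11.0% of the RXRG peaks that met a list. Peaks over 500 bp numbered 154 among the lone ones (0.670%) and 2633 among the others (10.6%). The median rose with the number of lists met, from 163 bp with none to 185 bp with 1, 219 bp with 2, 272 bp with 3 and 340 bp with 4. It was 315 bp for the 1148 peaks that met all 5.

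The share of lone peaks fell steadily across 10 classes of RXRG peak width. It was 71.2% for peaks of 137 to 143 bp, 57.7% at 170 to 184 bp, 31.0% at 244 to 304 bp and 7.15% above 416 bp. A wide peak meets any list more readily, and width was not separated from this. Restricting the list to RXRG peaks wider than its median of 184 bp lowered the share of lone peaks from 48.0 to 29.5%. The median distance of lone peaks to H3K27ac was 7728 bp in the narrowest class and came down, with small reversals, to 6018.5 bp at 244 to 304 bp. It was 6318.5 bp in the next class, with 950 lone peaks, and 7870 bp in the widest, with 342. Read the other way, the median width of lone peaks went from 166 bp within 100 bp of H3K27ac to 160 bp beyond 100 kb.

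**Figure D1:**
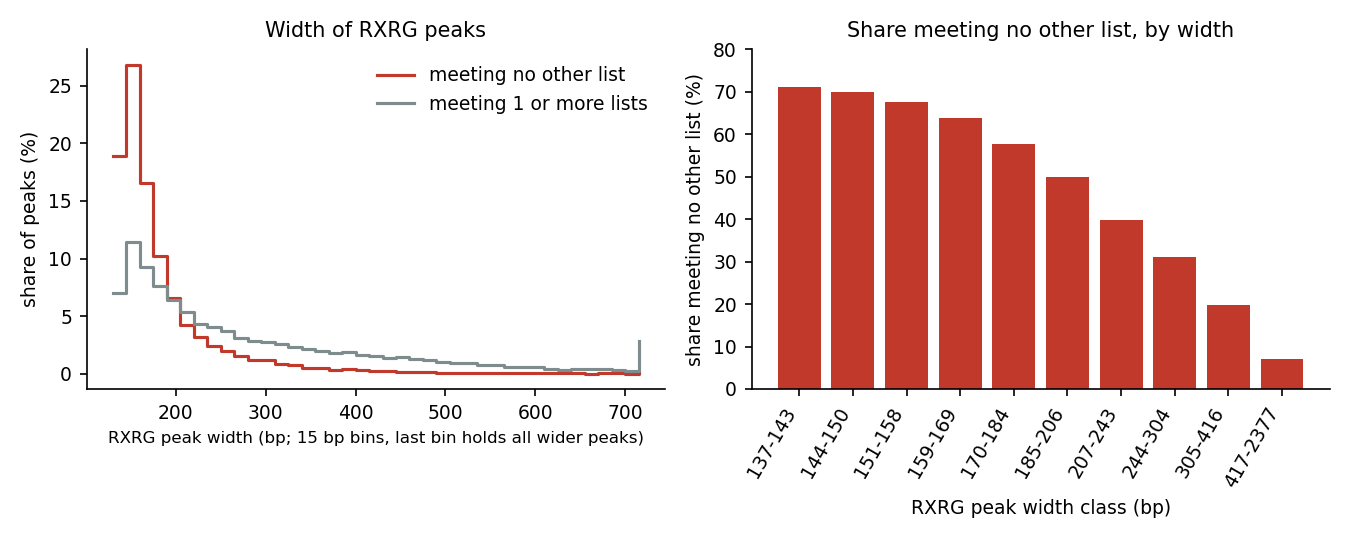
Left, widths of RXRG peaks in bp against the share of peaks in each 15 bp bin, for peaks meeting no other list and for those meeting 1 or more. Right, bars give the share of RXRG peaks meeting no other list in 10 width classes, from 71.2% in the narrowest to 7.15% in the widest.

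The widest lone peaks had little in common in their surroundings. The widest of all, at chromosome 9, 61496606 to 61497748 (1143 bp, build rn5), lay 227 bp from an NR2F2 peak and 2220 bp from H3K27ac. The next, at chromosome X, 54937677 to 54938704 (1028 bp), was 312527 bp from H3K27ac and 80815 bp from the nearest NR2F2 peak. The third, at chromosome 1, 16960529 to 16961554 (1026 bp), had TEAD1 as its nearest list, at 17672 bp. The fourth, at chromosome 14, 84928273 to 84929269 (997 bp), was 3937 bp from H3K27ac but 87449 bp from NR2F2. The fifth, at chromosome 1, 82658909 to 82659864 (956 bp), had H3K27ac at 1557 bp, YY1 at 1616 bp and TEAD1 at 1677 bp. Genes at these positions are not given, as rn5 gene models were not used here.

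Most lone RXRG peaks lay within 10 kb of acetylated chromatin. The median distance between the edges of a lone peak and of the nearest H3K27ac peak was 6944 bp, with quartiles of 2368.5 and 23902 bp. Of lone peaks, 5.89% lay within 500 bp of H3K27ac, 11.1% within 1 kb, 42.6% within 5 kb and 58.1% within 10 kb. These shares depend on how much sequence each band holds. Of the 2760 Mb axis, 187 Mb free of other lists lay within 1 kb of H3K27ac and 170 Mb at 1 to 2 kb. A further 364 Mb lay at 2 to 5 kb and 345 Mb at 5 to 10 kb. At the far end, 1045 lone peaks (4.55%) were more than 100 kb away. Counting only H3K27ac peaks wider than their list's median moved the median distance to 16044 bp.

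The 2385 RXRG peaks that also lay outside H3K27ac but met another factor had nearly the same distances, with a median of 6479 bp and 58.3% within 10 kb. They differed more at short range, where 10.3% of them lay within 500 bp of H3K27ac. Lone NR2F2 peaks, 11532 peaks meeting no other list, were at a median of 9517 bp, with 51.1% within 10 kb. Lone TEAD1 peaks, 3571 in all, were closest, at a median of 3174 bp with 21.8% within 500 bp. The NR2F2 and TEAD1 values are for placed chromosomes, the only ones on which the RXRG list has peaks.

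The density of lone RXRG peaks declined with distance from acetylation, except right beside it. Density here is the number of peak midpoints per Mb of sequence that no other list covers. It was 12.3 per Mb within 1 kb of H3K27ac, 14.5 at 1 to 2 kb and 13.5 at 2 to 5 kb. From there it fell through 10.4 at 5 to 10 kb and 7.94 at 10 to 20 kb to 3.998 beyond 100 kb, so that the density at 1 to 2 kb was 3.63 times that beyond 100 kb. Positions closer to another list than the peak's own flank cannot hold a lone peak. The part of this in the lower value of the first band was not tested.

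TEAD1 gave another profile. The density of lone TEAD1 peaks was 5.45 per Mb within 1 kb and 2.36 at 1 to 2 kb, a ratio of 2.31. The same ratio was 0.845 for lone RXRG peaks and 0.992 for lone NR2F2 peaks. Beyond 100 kb the density of lone TEAD1 peaks was 0.367, so that their density within 1 kb was 14.8 times that value. Of the 3 classes, lone NR2F2 peaks varied least, from 6.14 per Mb at 5 to 10 kb to 2.72 beyond 100 kb.

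**Figure D2:**
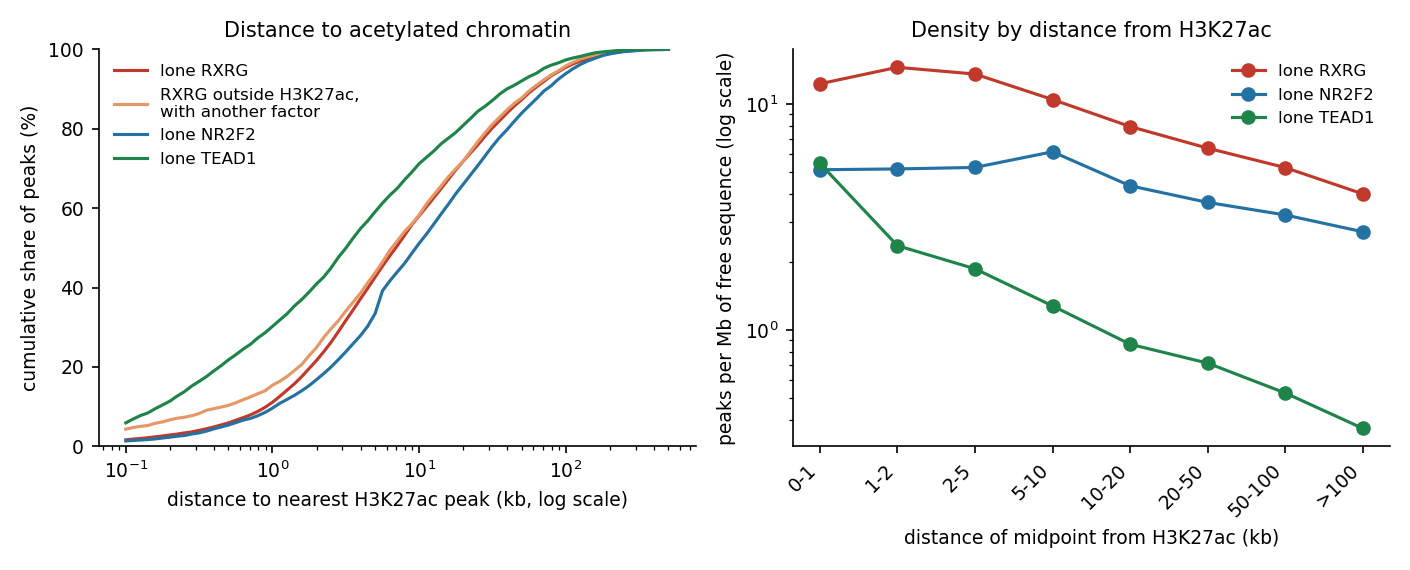
Left, cumulative share of peaks against the distance to the nearest H3K27ac peak in kb, on a log axis, for 4 classes of peaks; 58.1% of lone RXRG peaks lie within 10 kb, and the lone NR2F2 curve has a step near 5 kb. Right, peaks per Mb of sequence free of other lists (log axis) in bands of distance from H3K27ac; lone RXRG peaks go from 14.5 at 1 to 2 kb to 3.998 beyond 100 kb.

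Within a given stretch between acetylated peaks, lone RXRG peaks had a median position close to that of an even spread. Each midpoint was placed between the H3K27ac peaks to its left and right, and its distance to the nearer of them was taken as a percentage of the stretch. Points spread evenly would have a median of 25% by this measure, and 20% of them would fall in the outermost 10% at either end of the stretch. Over the 22984 lone RXRG peaks with H3K27ac on both sides the median was 25.3%, and 19.0% lay in those outer parts. The median stayed between 24.3 and 26.2% in stretches of 5 to 10, 10 to 30, 30 to 100 and more than 100 kb. The share in the outer parts rose with length, from 15.8% in stretches of 5 to 10 kb through 18.05 and 19.7% to 21.4% in those over 100 kb. A lone peak's midpoint cannot lie closer to H3K27ac than its own flank. This lowers the outer share most in short stretches, and its part in the rise was not tested. Lone NR2F2 peaks had a median of 24.0%. Their share in the outer parts also rose, from 16.8% in stretches of 5 to 10 kb to 25.5% in those over 100 kb. Lone TEAD1 peaks leaned towards the acetylated ends, with a median of 19.2% and 31.6% in the outer parts.

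What varied for lone RXRG peaks was the density from stretch to stretch. It was 16.8 per Mb in acetylation-free stretches of 5 to 10 kb, 14.02 in those of 10 to 30 kb, 8.35 in those of 30 to 100 kb and 5.21 in longer ones. Shorter stretches had lower densities than those of 5 to 10 kb. Stretches of 2 to 5 kb had 15.6 per Mb from 961 peaks, and the shortest, up to 2 kb, had 11.1 per Mb from only 123 peaks. The ratio between stretches of 5 to 10 kb and those over 100 kb was 3.23 for lone RXRG, 1.70 for lone NR2F2 and 4.79 for lone TEAD1 peaks. Among stretches over 5 kb, lone RXRG peaks were thus denser where acetylation was more closely spaced.

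H3K27ac was the nearest of the 5 lists for 60.5% of lone RXRG peaks, followed by NR2F2 for 18.6%, nerve SREBP1 for 13.5%, YY1 for 4.48% and TEAD1 for 3.01%. The lists differ in size, with 99514 peaks for H3K27ac, 41812 for NR2F2, 38704 for YY1, 29435 for SREBP1 and 26404 for TEAD1, and the part of list size in these shares was not tested. The median distance was 20474 bp to NR2F2, 23460 bp to YY1, 26310 bp to SREBP1 and 38582 bp to TEAD1. The nearest peak of any of the 5 lists was 4678 bp away in the median. More than 10 kb from every list were 7197 lone peaks (31.3%), and more than 100 kb from every list 278 (1.21%). Their median widths, 161 bp in both sets, were close to that of all lone peaks.

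The lone peaks farthest from acetylation were on chromosomes 11 and 10. At chromosome 11, 63592430 to 63592609 (180 bp), the nearest H3K27ac peak was 651782 bp away and the nearest NR2F2 peak 659246 bp, but a nerve SREBP1 peak lay at 489 bp. A second lone peak in the same stretch, at 63476493 to 63476640 (148 bp), was 535845 bp from H3K27ac. The stretch between H3K27ac peaks that holds both is 1397170 bp long. On chromosome 10, the lone peak at 21222855 to 21223006 (152 bp) was 533116 bp from H3K27ac, with another lone peak 36801 bp from it.

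Most lone RXRG peaks stood by themselves. The gap to the nearest other lone peak had a median of 24860 bp, with quartiles of 9692.5 and 61740 bp. A neighbour lay within 1 kb for 909 lone peaks (3.95%), within 5 kb for 12.4%, within 10 kb for 25.7% and within 20 kb for 43.6%. The closest pair was 139 bp apart, and no 2 peaks of the RXRG list were closer than 138 bp. For comparison, 15.0% of lone NR2F2 and 5.57% of lone TEAD1 peaks had one of their own kind within 10 kb. These lists are smaller, and the share depends on list size. Among lone RXRG peaks wider than the median of the RXRG list it was 11.5%.

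Lone peaks had lone neighbours more often than the remaining RXRG peaks did. The nearest RXRG peak of any kind was itself lone for 56.2% of lone peaks and for 39.5% of the others, where 48.0% of the list is lone. The gap to that neighbour had a median of 13592 bp for lone peaks and 10957 bp for the rest. Only 19.7% of lone peaks lay within 10 kb of an RXRG peak that met another list, and the median gap to such a peak was 33572.5 bp. The rule itself bears on these values. A single peak of another list, up to 9902 bp wide for H3K27ac, can leave out several neighbouring RXRG peaks together. The part of this in the shares and gaps was not tested.

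The gaps between RXRG peaks had a step at 5 kb. Among pairs of lone peaks, 470 were less than 1 kb apart, 506 were 2 to 4 kb apart and 799 were 5 to 7 kb apart, so that pairs were 1.58 times as frequent just beyond 5 kb as before it. Between a lone peak and an RXRG peak that met a list the corresponding counts were 850 and 1364, a ratio of 1.60. In 500 bp steps these pairs went from 193 at 4 to 4.5 kb to 280 and then 384 at 5 to 5.5 kb.

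A rise near 5 kb occurred within each list, but its shape differed. Adjacent H3K27ac gaps numbered 10072 at 2 to 4 kb, 14291 at 5 to 7 kb and 8194 at 8 to 10 kb. The same counts were 1223, 2773 and 1431 for NR2F2, and 1590, 2622 and 2124 for all RXRG. Over adjacent peaks of a list, the ratio of gaps of 5 to 7 kb to gaps of 2 to 4 kb was 1.65 for all RXRG, 1.42 for H3K27ac, 2.27 for NR2F2, 1.48 for YY1, 1.50 for TEAD1 and 4.87 for nerve SREBP1. Towards other lists, the ratio was counted over all pairs with a lone RXRG peak, not over adjacent gaps. By that count, which gave 1.58 among lone RXRG peaks, the rise was weaker or missing. The ratio was 0.938 towards H3K27ac, 0.926 towards SREBP1, 1.00 towards TEAD1, 1.03 towards YY1 and 1.20 towards NR2F2. Lone NR2F2 peaks did have a step towards H3K27ac. Their cumulative share within a given distance was 30.3% at 4467 bp, 33.5% at 5012 bp, 39.2% at 5623 bp and 41.6% at 6310 bp. Every peak of the SREBP1 list was 485 bp wide, whereas widths varied in the other lists. The lists share a build and, per the submitters' processing notes, a peak caller. The part of the calling in the 5 kb step was not tested. Counts of neighbours within 5 kb and within 10 kb therefore lie on different sides of it.

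**Figure D3:**
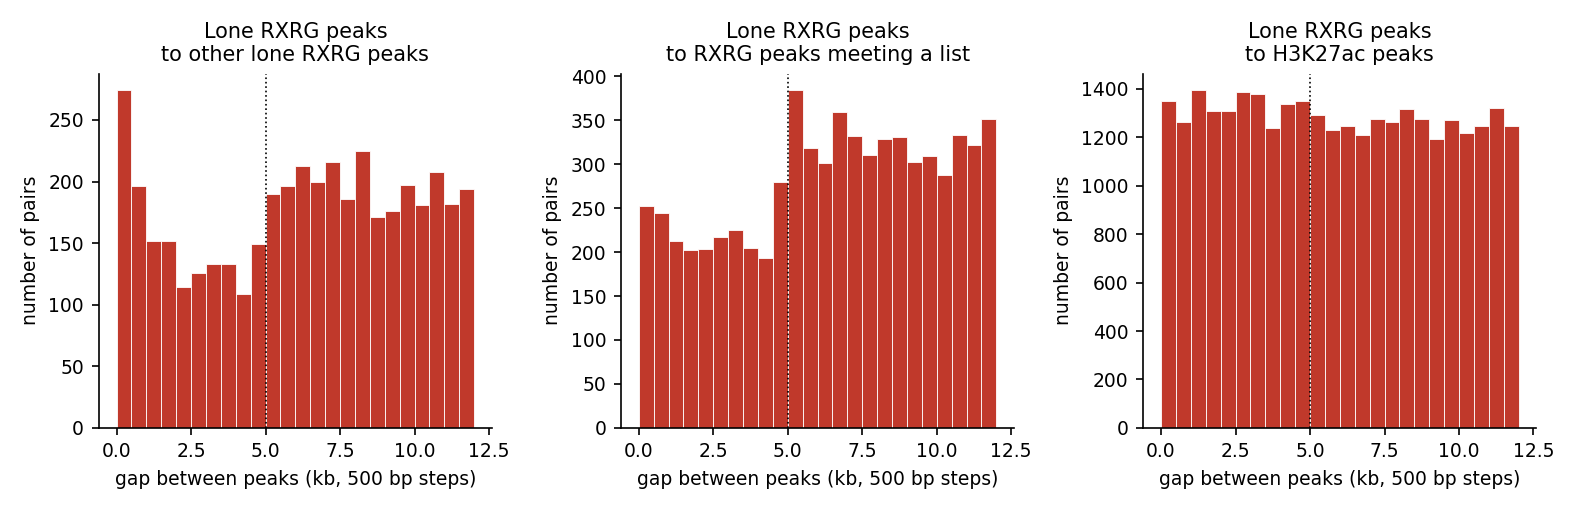
Number of pairs against the gap between peaks, in 500 bp steps up to 12 kb, from lone RXRG peaks to other lone RXRG peaks, to RXRG peaks that meet a list, and to H3K27ac peaks; the dotted line is at 5 kb. Pairs within the RXRG list rise at 5 kb (from 506 at 2 to 4 kb to 799 at 5 to 7 kb among lone peaks), whereas pairs with H3K27ac do not (5313 and 4982).

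Chained across gaps of up to 10 kb, lone RXRG peaks formed 436 clusters of 3 or more that held 1428 peaks (6.21%). Of these clusters 347 had 3 members, 70 had 4, 13 had 5, 4 had 6, and there was 1 each with 7 and with 11. A further 2236 pairs and 17092 single peaks made up the rest. The share in clusters of 3 or more was 1.21% with gaps of up to 5 kb and 18.6% with 20 kb, and 1.16% among lone peaks wider than the list's median. Clusters of 3 or more spanned a median of 11461 bp. Their members were 167 bp wide and 5183.5 bp from H3K27ac in the median, against 162 bp and 7514.5 bp for single peaks. An H3K27ac peak lay within the span of 217 of the 436 clusters, and an RXRG peak meeting another list within 47.

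The largest cluster, on chromosome 18 from 29664972 to 29704140, held 11 lone peaks in 39.2 kb. Its peaks were wide for lone peaks, from 152 to 419 bp with a median of 314 bp, and 7 of them were over 300 bp. Within the span lay 2 H3K27ac peaks, 1 NR2F2 peak and 1 SREBP1 peak, but none of YY1 or TEAD1. The distances of its members to H3K27ac ran from 687 to 15648 bp. Looked at after its values were seen, the cluster had steps of similar length: 5 of the 10 steps from the start of a member to the start of the next were between 5804 and 6439 bp, among them 6438 and 6439 bp, and 6282 and 6287 bp. The other 5 were between 366 and 4718 bp. The sequence under these peaks was not used here, so that repeats in the genome and the accuracy of read placement were not tested.

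**Figure D4:**
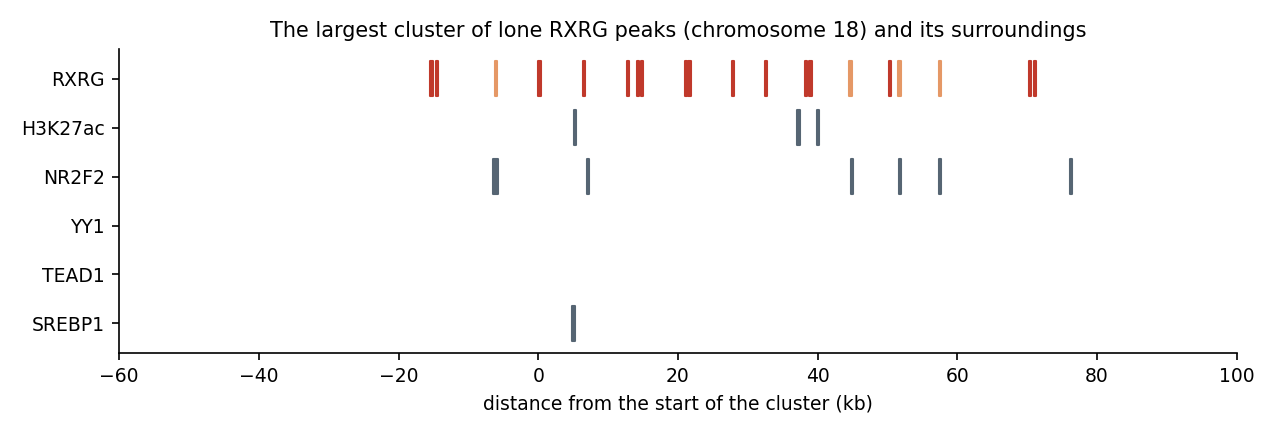
Peaks of the 6 lists against the distance in kb from the start of the 11-member cluster on chromosome 18, with lone RXRG peaks in red, other RXRG peaks in orange and the other lists in grey; peaks under 300 bp are drawn 300 bp wide. Of the 10 steps between the starts of successive lone peaks 5 are 5804 to 6439 bp long and the others are shorter; 2 H3K27ac peaks and no YY1 or TEAD1 peak lie among them.

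The other named clusters held no acetylated peak. On chromosome 5, from 168740341 to 168773489, 7 lone peaks of 139 to 643 bp lay in 33.1 kb, between 26566 and 59576 bp from the nearest H3K27ac peak. The third was 1 of 4 clusters with 6 members, named because its span was the shortest of the 4. On chromosome 2, from 252933490 to 252952916, 6 lone peaks of 140 to 318 bp lay in 19.4 kb, between 170853 and 189962 bp from H3K27ac. It was farther from acetylation than the median of 25704.5 bp over the members of all 4. No peak of any of the 5 other lists, and no other RXRG peak, was inside the span on chromosome 5 or on chromosome 2.

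Along the genome, lone RXRG peaks followed the density of acetylation. Chromosome 12 had 16.4 of them per Mb, chromosome 10 14.5 and chromosome 19 12.9, whereas chromosome 14 had 5.90 and chromosome X 3.19. The number of H3K27ac peaks per Mb was 51.3 on chromosome 12, 57.6 on chromosome 10, 25.5 on chromosome 14 and 14.7 on chromosome X. The pattern was not particular to lone peaks. All RXRG peaks together had 29.2 per Mb on chromosome 12, 29.4 on chromosome 10, 12.3 on chromosome 14 and 8.15 on chromosome X. Across the 21 chromosomes the densities of lone peaks and of H3K27ac peaks had a Pearson r of 0.934 and a Spearman rho of 0.931, given as a description, since all points come from the same libraries and assembly. The median distance of lone peaks to H3K27ac ran from 4260 bp on chromosome 7 to 19079 bp on chromosome X.

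The lone share of RXRG peaks was more even. It ran from 39.1% on chromosome X (95% Wilson interval 36.4 to 41.8%) and 43.5% on chromosome 7 (41.9 to 45.1%) to 53.2% on chromosome 20 and 56.1% on chromosome 12 (53.5 to 58.5%). The intervals cover counting error only and take peaks as independent, whereas neighbouring peaks tended to share lone status. Across chromosomes the lone share had a Pearson r of 0.178 and a Spearman rho of -0.0896 with the density of H3K27ac peaks. The median width of lone peaks was between 158 and 167 bp on every chromosome.

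**Figure D5:**
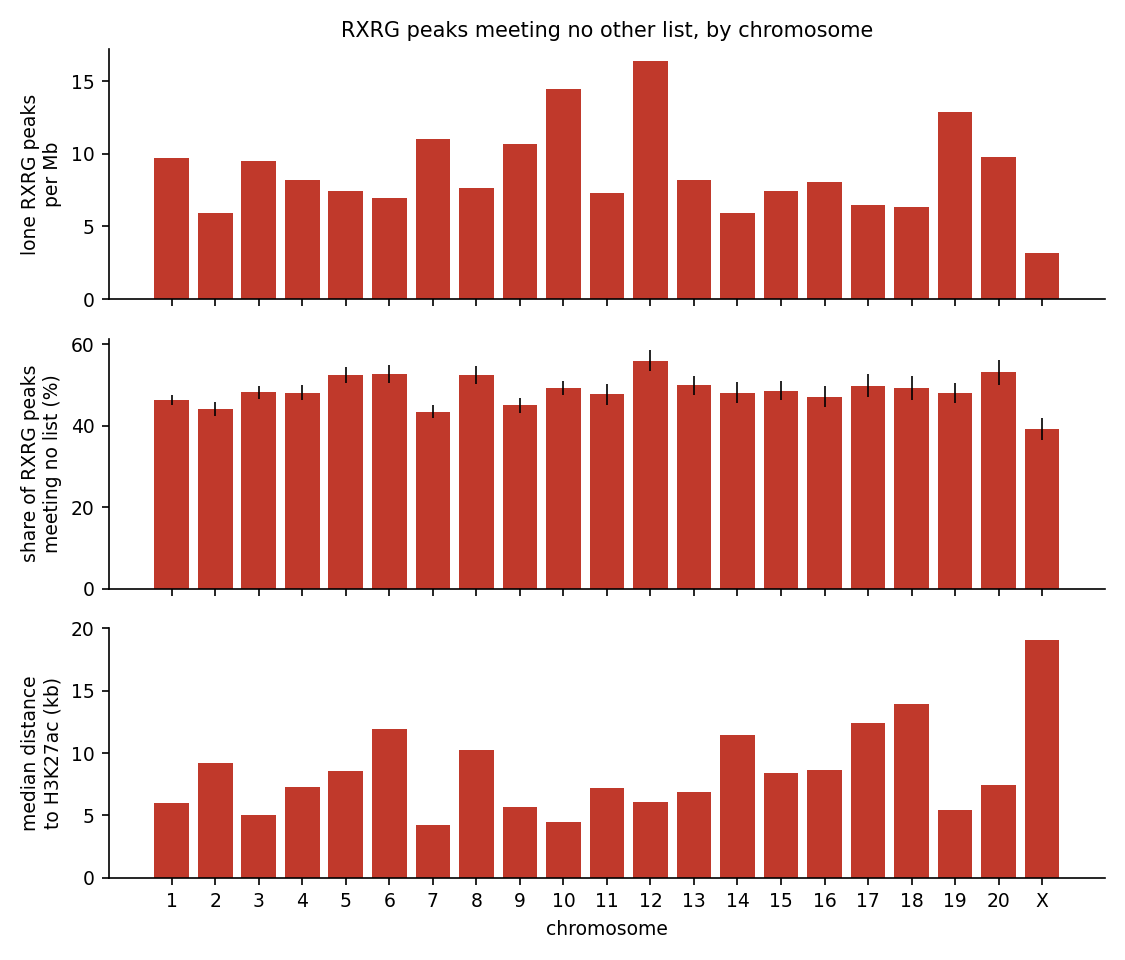
Bars give, for each of the 21 chromosomes, lone RXRG peaks per Mb, their share of the RXRG peaks with 95% Wilson intervals as lines, and their median distance to H3K27ac in kb. Chromosome 12 has the highest density and share (16.4 per Mb and 56.1%), and chromosome X the lowest density and share and the longest distance (3.19 per Mb, 39.1% and 19079 bp).

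The same held in windows of 1 Mb. Of 2785 windows with a peak in any list, 106 held no lone RXRG peak, the median was 6 and the highest 44, at chromosome 7, 12000001 to 13000000. In that window 103 RXRG peaks lay among 129 H3K27ac and 101 YY1 peaks. Windows with up to 12 H3K27ac peaks held 3.30 lone peaks each on average, those with 13 to 26 held 5.31, those with 27 to 54 held 9.53 and those with 55 or more held 15.0. The lone share of RXRG peaks in these 4 classes was 53.5, 48.2, 50.3 and 45.5%. Over all windows the number of lone peaks had a rho of 0.684 with H3K27ac peaks and 0.635 with other RXRG peaks. With TEAD1 peaks rho was 0.570 and with NR2F2 peaks 0.521.

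In some windows nearly all RXRG peaks were lone. Among the 932 windows with at least 20 RXRG peaks the lone share had a median of 49.1% and quartiles of 39.9 and 58.6%, and 22 windows were above 80%. The highest, chosen after the values were seen, was chromosome 12, 51000001 to 52000000, where 39 of 40 RXRG peaks were lone (97.5%) beside 9 H3K27ac, 15 NR2F2, 3 TEAD1, 2 YY1 and 8 SREBP1 peaks. The window at 47000001 to 48000000 of the same chromosome came next, with 24 of 26 and 10 H3K27ac peaks. In the window from 49 to 50 Mb, between these, 29 of 56 RXRG peaks were lone among 91 H3K27ac peaks.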

How the data were processed

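Positions of peaks on build rn5 were deposited for 6 of the 7 samples. Per the submitters' processing notes, bcl2fastq 2.20.0.422, Bowtie2, MACS2, bedtools and deepTools were used; settings, thresholds, controls and versions of the other tools were not given in the sources used here, and read depth is unknown. The authors' lists hold no scores, except a constant in the SREBP1 list, so that wider peaks stood in for higher scores in the alternatives. Positions are printed counting from 1. Distances are bases between the edges of peaks, and 0 where they abut. The axis for densities runs from the first to the last peak of a chromosome, without 14 stretches over 1 Mb (142 Mb in all) that hold no peak, and comes to 2760 Mb. The members, lists and rules were chosen with earlier results of these data known. Named by rule were the 5 widest lone peaks, the 3 clusters with the most members (ties by the shorter span) and the 3 peaks farthest from H3K27ac. Alternatives were other definitions of overlap, wider peaks, the SREBP1 list left out, midpoints, and gaps of 5 and 20 kb. Neither a genome sequence nor gene positions of rn5 were used here, so that no motif was searched. The functions were tested on simulated data. Python 3.11.15, NumPy 2.4.6, SciPy 1.17.1, pandas 2.3.3 and Matplotlib 3.10.9 were used.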

Additional observations from a re-analysis of the deposited data

Results flagged for a closer look

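The RXRG list also held 16 peaks on the mitochondrial genome, which were outside the comparisons and were noticed as a signal where no comparison was made. They had a median width of 252 bp and lay between positions 134 and 15973. Of these, 15 overlapped a mitochondrial peak of another list and 1 did not. No control library shows what a CUT&RUN list holds there without the antibody.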

How the results depend on the processing

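The 5 main values were recomputed in 31 alternatives, of which 12 stayed within the 95% interval of the original value and 19 moved beyond it. Restriction to placed chromosomes changed none of the 5, since the RXRG list has no other peaks, and leaving out the nerve SREBP1 list kept all 5 within their intervals. Requiring an overlap of 50% of the shorter peak gave a lone share of 50.2%, a median distance to H3K27ac of 6418 bp, 26.8% with a lone neighbour within 10 kb and 6.79% in clusters of 3 or more. Extending the other lists by 500 bp gave 43.8%, 7883 bp, 23.8% and 5.21%. With RXRG peaks wider than their list's median the lone share was 29.5%, the median width 226 bp, the distance 6227 bp, and the shares with a neighbour and in clusters 11.5% and 1.16%; fewer peaks lie farther apart by construction. The distance was 16044 bp to H3K27ac peaks wider than their list's median and 7467 bp between midpoints. Gaps of 5 kb gave 12.4% with a neighbour and 1.21% in clusters, and gaps of 20 kb 43.6% and 18.6%. No paired analysis was possible because there is a single library per target. Motif shares were not run, as no rn5 sequence was used here. Depth limits how many weak sites each list holds, and a list called at greater depth could meet peaks that are lone here; this was not tested.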
